A study of Mus musculus with 6 samples.

Results

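The 1041 regions described here had ATAC-seq peaks in both plasma cell libraries of mouse bone marrow and in none of the 4 libraries of the other 2 cell populations. They were chosen by their measured peaks. Peaks from the 6 libraries were joined into 1 region where they shared at least 1 bp, which gave 69171 regions, and a region was kept when a peak of plasma cells 1 and of plasma cells 2 overlapped it and no peak of immature B cells or pc-BMACs did. The kept regions made up 1.50% of all merged regions and covered 357.8 kb. The absence of a peak elsewhere is therefore part of the choice and not a finding, and a region with no called peak is not shown to be closed.

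Accessible chromatin was mapped by ATAC-seq, which uses a transposase that cuts and tags open DNA. All cells came from the bone marrow of naive Adig mice of strain Balb/c, in which GFP reports the expression of Aire, the autoimmune regulator, so every group carries the reporter. The sort gate AireGFP-B220-CD138+TACI+ defined plasma cells. The gate AireGFP-B220+CD138-TACI-IgM+ defined immature B cells. The gate AireGFP+B220-CD138+TACI+ defined pc-BMACs, which carry the surface markers of plasma cells and express the reporter. Each population had 2 libraries, made from 2000 to 15000 sorted cells, and the labels do not say whether those came from separate mice, nor give the animals' age or sex. DNA of other marrow cells can enter a sort, and values for marker genes of other lineages stand beside the results.

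Plasma cells are the antibody-secreting end stage of the B lineage. Blimp-1 (Prdm1), IRF4 and XBP1 drive their secretory programme and end that of B cells, which rests on Pax5, Ebf1 and Bach2, and long-lived plasma cells persist in the marrow with survival signals from its niche. Accessible regions away from gene starts are mostly candidate enhancers, which differ more between cell types than promoters do.

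Few of the regions lay at gene starts, and those that did are where the deposited calls can be set beside sequence. They overlapped 45 RefSeq promoter windows (GRCm38.p6, the assembly that mm10 names), each running from 250 bases before to 50 after an annotated start. Of those, 6 are shown, or as much of the 250 bases before the start as the region covered, 5′ to 3′ on the gene's strand. They come from the starts of Gzma, encoding the cytotoxic protease granzyme A, S100a8, encoding a calcium-binding protein abundant in neutrophils, Trim10, a gene known from red cell development, Art4, a blood group gene of red cells, Uros, encoding a haem synthesis enzyme, and Muc20, encoding a mucin. Capitals mark the GATA factor core, GATAA, which reads TTATC where it lies on the opposite strand. They also mark the E-box CAGCTG, and the RUNX core TGTGGTT, which reads AACCACA where it lies on the opposite strand.
Gzma: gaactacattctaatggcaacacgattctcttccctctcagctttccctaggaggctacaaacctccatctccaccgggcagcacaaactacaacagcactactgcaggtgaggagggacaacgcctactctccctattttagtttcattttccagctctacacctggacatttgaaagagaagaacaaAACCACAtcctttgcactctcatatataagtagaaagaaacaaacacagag
S100a8: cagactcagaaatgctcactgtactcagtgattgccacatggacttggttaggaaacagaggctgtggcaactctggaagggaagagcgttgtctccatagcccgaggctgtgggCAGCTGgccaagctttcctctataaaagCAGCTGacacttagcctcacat
Trim10: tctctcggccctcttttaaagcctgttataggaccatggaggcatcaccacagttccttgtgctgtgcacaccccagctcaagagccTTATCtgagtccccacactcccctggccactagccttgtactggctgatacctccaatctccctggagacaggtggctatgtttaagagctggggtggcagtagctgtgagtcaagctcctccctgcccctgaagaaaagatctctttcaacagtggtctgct
Art4: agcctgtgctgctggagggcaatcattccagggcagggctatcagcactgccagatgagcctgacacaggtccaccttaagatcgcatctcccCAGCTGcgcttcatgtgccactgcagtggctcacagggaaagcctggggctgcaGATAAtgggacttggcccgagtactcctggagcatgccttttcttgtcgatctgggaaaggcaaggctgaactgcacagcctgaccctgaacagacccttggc
Uros: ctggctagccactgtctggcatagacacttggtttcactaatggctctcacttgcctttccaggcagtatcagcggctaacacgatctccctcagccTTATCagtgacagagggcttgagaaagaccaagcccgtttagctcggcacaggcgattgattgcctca
Muc20: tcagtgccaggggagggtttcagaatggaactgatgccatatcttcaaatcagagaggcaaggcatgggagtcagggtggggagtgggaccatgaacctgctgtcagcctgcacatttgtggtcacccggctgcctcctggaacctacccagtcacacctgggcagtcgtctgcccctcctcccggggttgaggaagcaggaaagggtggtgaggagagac

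The Gzma stretch (chr13:113100982-113101221, minus strand) holds AACCACA, the RUNX core read from the opposite strand. The S100a8 stretch (chr3:90668906-90669070, plus strand) holds CAGCTG, an E-box, at 2 places. Trim10 (chr17:36869324-36869573, plus strand), Art4 (chr6:136857601-136857850, minus strand) and Uros (chr7:133702501-133702665, minus strand) each hold the GATA core, and Art4 holds CAGCTG as well. The 6 stretches were picked and do not stand for the 45 windows. Of those not shown, the stretches at Znfx1 and Gm39895 hold the GATA core at 2 places each, and that at Ackr1 holds none. No letters are in capitals in the Muc20 stretch (chr16:32797436-32797656, minus strand). Over whole windows and both strands, GATAA was present in 17 of the 45 windows (37.8%), beside 14.2% of the windows overlapped by a region called in all 6 libraries and 25.4% of all windows in the RefSeq table. CAGCTG was also present in 17 (37.8%, beside 14.4% and 16.3%) and TGTGGTT in 5 (11.1%, beside 3.51% and 5.27%). GGAAG, the core of ETS sites, went the other way with 29 windows (64.4%, beside 76.0% and 71.4%). CCACG, which occurs in the elements of the unfolded protein response, was in 19 (42.2%, beside 50.7% and 32.8%). The E-box CACGTG was in 2 windows (4.44%, beside 10.9% and 7.15%), and the cyclic AMP response core TGACGT also in 2 (4.44%, beside 12.8% and 7.51%). The T-box core AGGTGTGA was in 2 as well (4.44%, beside 0.714% and 1.28%). The interferon-stimulated response element was in 1 (2.22%, beside 2.88% and 3.44%), and the octamer ATGCAAAT in 0 (beside 1.51% and 1.74%). The windows also differed in base composition from windows of regions called in all 6 libraries. Their median CpG observed-to-expected ratio was 0.268, beside 0.796 for those windows and 0.384 for all windows. Their median GC content was 53.3%, beside 62.0% for those windows, and near the 52.7% of all windows. Some windows share a member and bases, as those of Dennd2d and 2010016I18Rik do, so the 45 are not all separate. Protein-coding genes held 29 of the 45, against 10151 of the 11620 windows overlapped by a region of all 6 libraries. The part of base composition in the motif counts was not tested, nor that of these differences, and a match is not a bound site.

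Most of the regions lay inside genes or far from them. Of the 1041, 71 (6.82%, exact 95% binomial interval 5.37% to 8.53%) lay within 1 kb of an end of a protein-coding gene. The share was 5.70% for the 9904 regions called in immature B cells alone, 7.04% for the 3054 of pc-BMACs alone, 47.0% for the 20468 called in all 6 libraries and 19.6% for all merged regions. The plasma cell share thus lay inside the range of the classes called in 1 population and far below that of the regions common to all. The median distance to a gene end was 15.9 kb, against 1.85 kb for regions of all 6 libraries. A protein-coding gene was overlapped by 664 regions (63.8%, 60.8% to 66.7%), and 750 (72.0%) overlapped a gene of any kind. Here the plasma cell regions lay between those of immature B cells alone (52.0%) and of pc-BMACs alone (73.2%), with intervals that did not touch, and at the level of all merged regions (64.0%). These intervals cover counting error only, since all regions of a class come from the same libraries. The table used gives no strand or exons for gene intervals, so a region inside a gene is not placed in an exon or intron.

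**Figure D1:**
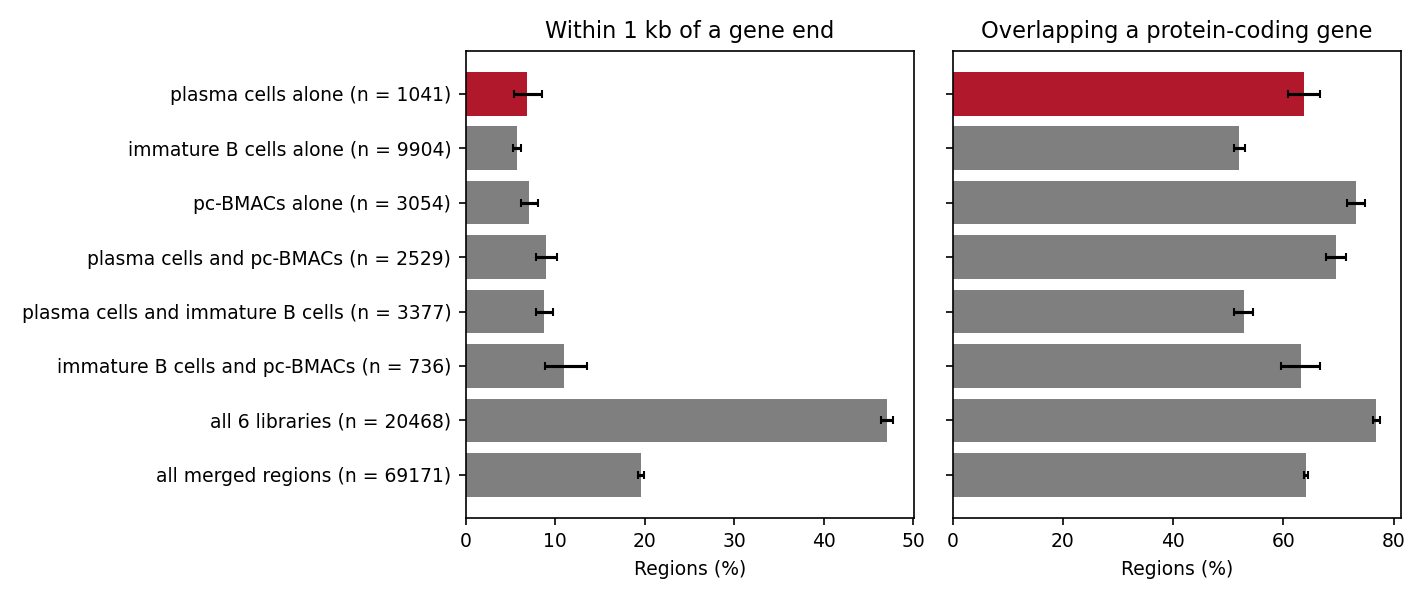
Horizontal bars give, for each class of merged regions, the percent within 1 kb of a protein-coding gene end (left) and the percent overlapping a protein-coding gene (right), with exact 95% binomial intervals. Regions of plasma cells alone, in red, stand at 6.82% and 63.8%, beside 47.0% at gene ends for regions of all 6 libraries.

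The peaks that made these regions were narrow. Their median width was 270 bp in plasma cells 1 (quartiles 195 to 354 bp, at most 1708 bp) and 235 bp in plasma cells 2 (188 to 323 bp, at most 1627 bp). In regions called in all 6 libraries, the peaks of the same libraries had medians of 647 and 645 bp. The deposited lists hold no peak below 150 bp, and 170 of the member peaks in plasma cells 1 (16.3%) and 226 in plasma cells 2 (21.6%) were exactly that wide, against 10.0% and 9.95% of the whole lists. Merged regions had a median of 303 bp, like those of immature B cells alone (321 bp) and below those of pc-BMACs alone (362 bp). Plasma cell regions shared with pc-BMACs were wider, at 634 bp. The peaks of the 2 plasma cell libraries overlapped over most of their length in most regions: the shared base pairs over the joined base pairs had a median of 0.714 (quartiles 0.586 to 0.822), and 901 regions (86.6%) reached at least 0.5. The corresponding medians were 0.709 for immature B cells alone and 0.709 for pc-BMACs alone, each in its own libraries. In the plasma cell libraries the median was higher in regions shared with pc-BMACs (0.784) and in regions of all 6 libraries (0.863). Peaks were joined only where they shared at least 1 bp, so some overlap within a member was fixed by the choice. Width was not used by the rule, but it comes from the same peak calls. Settings that leave out narrow peaks necessarily remove many of the members. With peaks of at least 300 bp only, the same rule gave 436 regions, which overlapped 243 of the 1041 (23.3%). With the widest 17035 peaks of each list, the shortest of which holds 34070, it gave 442, which overlapped 78 (7.49%).

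**Figure D2:**
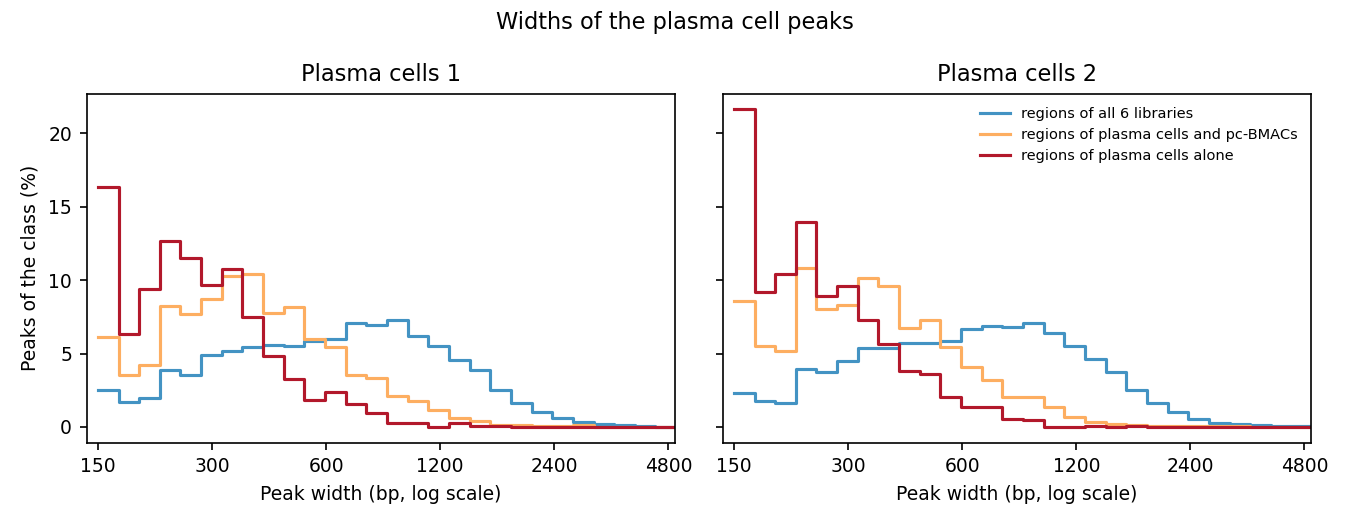
Lines give the percent of the peaks of each class by peak width in bp (log scale) in plasma cells 1 (left) and plasma cells 2 (right). Peaks of regions called in plasma cells alone, in red, pile up at the 150 bp minimum and have medians of 270 and 235 bp, against 647 and 645 bp for regions of all 6 libraries, in blue.

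The edges of the choice were clear in base pairs but not in the number of libraries. The nearest peak of the other 4 libraries lay within 100 bp of 7 members (0.672%), within 1000 bp of 205 (19.7%) and beyond 10000 bp of 309 (29.7%), with a median gap of 4122 bp. Just outside the rule, 693 regions were called in both plasma cell libraries and exactly 1 other library. That library was immature B cells 1 for 236 regions, pc-BMACs 1 for 233, pc-BMACs 2 for 139 and immature B cells 2 for 85. Its peak shared a median of 221 bp with the plasma cell peaks, and in only 3 of the 693 did it share under 50 bp. Another 1467 regions were called in plasma cells 1 and no other library, and 759 in plasma cells 2 and no other.

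The regions were spread over many genes rather than gathered at a few. Of the 1041, 984 could be assigned to a nearest protein-coding gene within 100 kb, of 65361 assigned regions in all, a share of 1.51%. They fell to 853 genes, of which 753 had 1 region, 78 had 2 and 22 had 3 or more. In 665 of the 853 genes a region called in all 6 libraries was present as well. The same count over all genes with a region was not made, so it is not shown to be a trait of these genes. Another member lay within 50 kb of 227 members (21.8%), and 19 runs of 3 or more members, each within 50 kb of the next, held 65. The like share with another of the class within 50 kb was 62.98% for immature B cells alone and 46.95% for pc-BMACs alone. Those classes hold more regions, 9904 and 3054, and the part of class size in the spread was not tested. By chromosome, members made up 1.10% (chromosome 19) to 1.82% (chromosome 6) of the merged regions on autosomes and 0.881% (13 of 1475) on the X chromosome.

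Osbpl3, which encodes an oxysterol-binding protein of the lipid transfer family, had the most members, 7 of its 17 regions. Its called regions numbered 13 and 12 in the plasma cell pair of libraries, 10 and 9 in the immature B pair and 5 and 4 in the pc-BMAC pair. Each pair is given as library 1 and library 2, here and in the counts that follow. In all these counts, members add to both plasma cell libraries and to none of the other 4 by construction. Of the other Osbpl3 regions, 4 were called in all 6 libraries and 3 in immature B cells alone. Of the 7, 6 lie inside the gene in a run of 100.7 kb from chr6:50316910-50317413 to chr6:50416763-50417582, and the last lies 24.6 kb outside it. The largest of them, chr6:50326106-50327077, had peaks of 858 and 897 bp in plasma cells 1 and 2, and chr6:50393896-50394808 had peaks of 868 and 913 bp. These are wide among members, and Osbpl3 kept 5 regions when only peaks of at least 300 bp were used. Leaving out any single library left its count at 7.

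Phf14, encoding a PHD finger protein that reads histone H3, had 5 members of 11 regions, all inside the gene. Its called regions numbered 9 and 9 in the plasma cell pair, 4 and 4 in the immature B pair and 5 and 5 in the pc-BMAC pair. The 5 members add to the plasma cell counts alone by construction. Of the gene's other regions, 3 were called in all 6 libraries and 1 in plasma cells and pc-BMACs. A further 1 was called in immature B cells alone and 1 in pc-BMACs alone. Its region chr6:12014294-12015570, with peaks of 1268 and 835 bp, was among the 5 widest of all members and lay 64870 bp from the nearest peak of the other 4 libraries. The other 4 Phf14 members had peaks of 150 to 368 bp, and with peaks of at least 300 bp 1 region of the gene was left.

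At Muc20, the 3 assigned regions were all members. By the choice itself, 3 were thus called in each plasma cell library and 0 in each of the other 4. They lie at chr16:32793269-32793874 inside the gene, at chr16:32797319-32797656 across its start, the sequence shown above, and at chr16:32800825-32801007, 3390 bp beyond it. Their peaks were 552, 300 and 150 bp wide in plasma cells 1 and 521, 240 and 150 bp in plasma cells 2. A 150 bp peak of plasma cells 1 alone, in the stretch where Muc20 overlaps Muc4, was assigned to Muc4. Of the 15280 genes with any region, 41 had only members, and 37 of the 41 had a single region. The number of all genes with a single region was not counted, so 41 is not shown to be high. Of the 41, the 4 with at least 2 were Muc20 with 3, Lime1, an adaptor of lymphocyte receptor signalling, Sgpp2, a sphingosine 1-phosphate phosphatase, and Slc24a5, a cation exchanger, the last 3 with 2 each. They were named after their values were seen. Sgpp2 held 1 of the widest members, chr1:78310065-78311394, which crosses a RefSeq start and had peaks of 1318 and 607 bp.

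**Figure D3:**
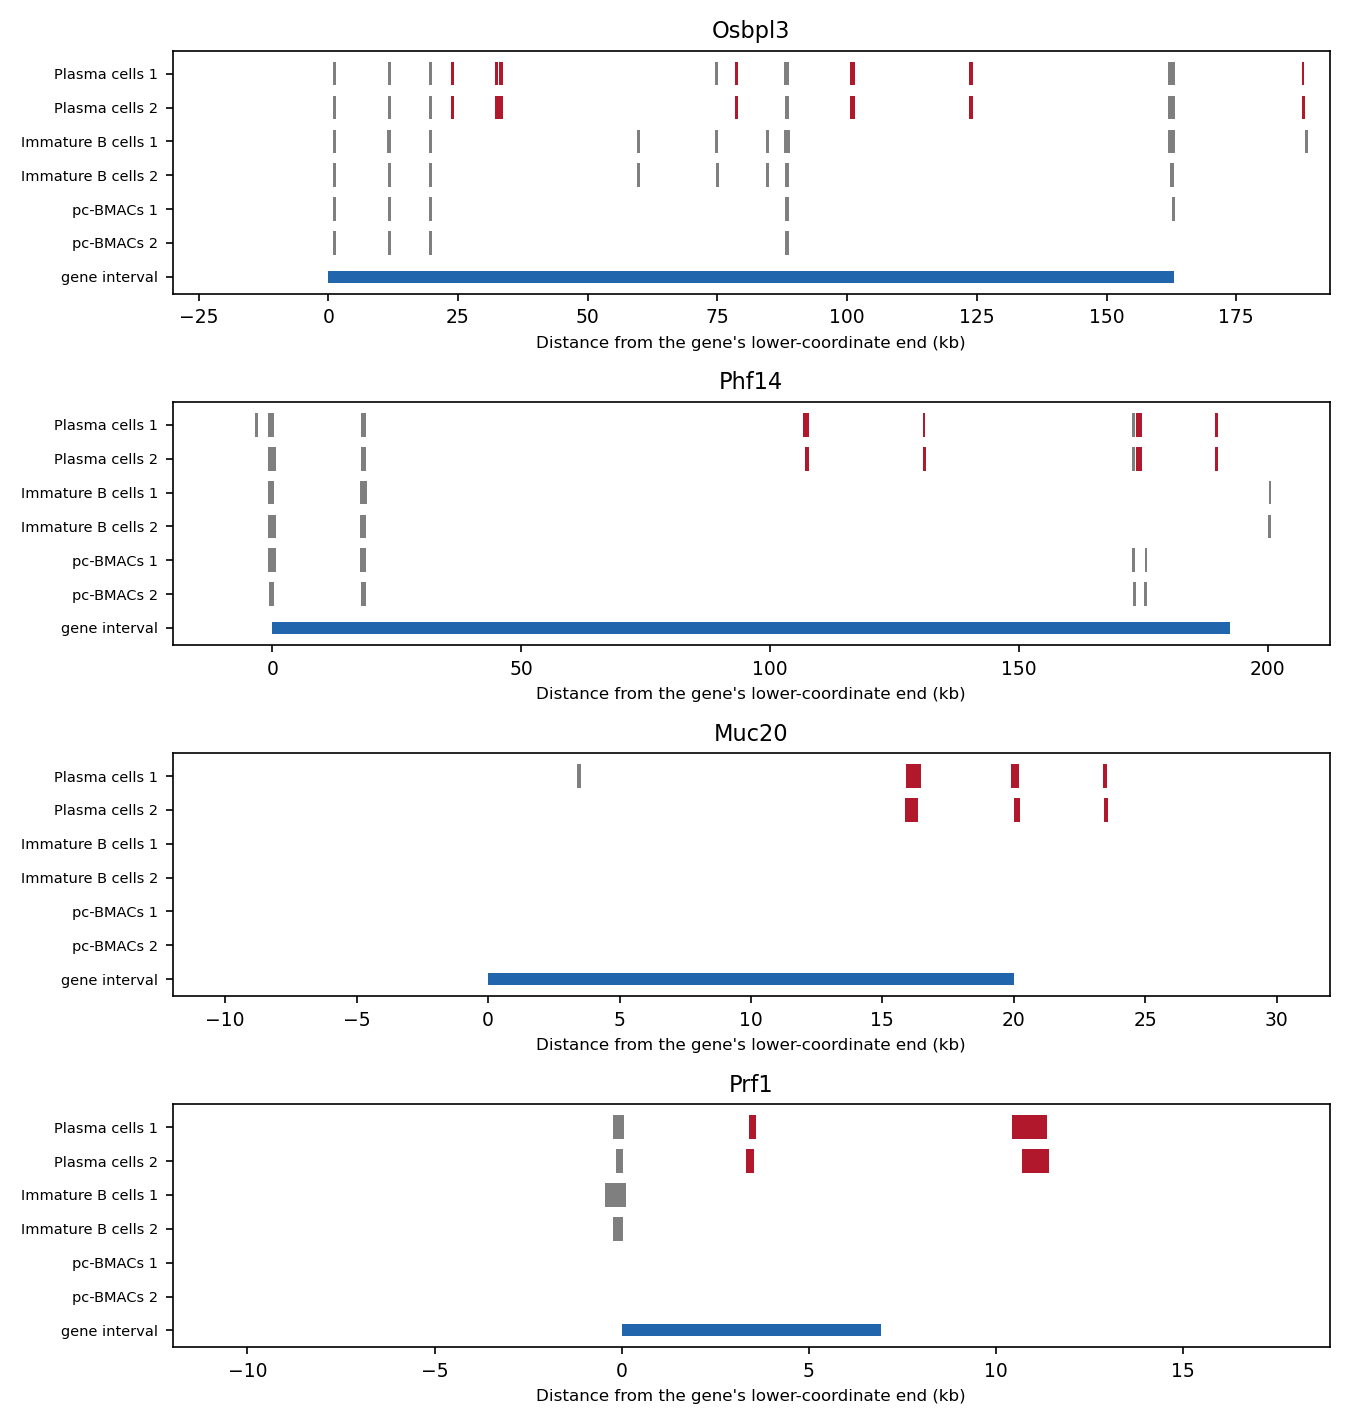
Peaks of the 6 libraries (rows) at Osbpl3, Phf14, Muc20 and Prf1, by distance in kb from the gene's lower-coordinate end, with regions called in plasma cells alone in red, other peaks in grey, and the gene interval in blue. Very narrow peaks are drawn slightly wider to be visible. At Osbpl3 the 7 red regions stand among grey peaks of all populations, while at Muc20 immature B cells and pc-BMACs have no peak in the 12 kb to either side or in the gene.

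The other genes with 3 or more members fell into those where plasma cells had more called regions than every other library and those where they did not. Gpc1, encoding the heparan sulphate proteoglycan glypican-1, had 6 and 5 regions in the plasma cell pair, 1 and 1 in the immature B pair and 1 and 2 in the pc-BMAC pair. Its 3 members all lie outside the gene, 24.5 to 57.9 kb from it. Ptpn13, encoding a tyrosine phosphatase, had 5 and 5 in plasma cells against 1 and 1 and 2 and 2. Slc1a4, a transporter of alanine, serine and cysteine, had 5 and 4 against 1 and 1 and 3 and 2, and 2 of its members, chr11:20300864-20301212 and chr11:20301360-20301591, lie 968 and 589 bp from the gene. Hdac7, a class IIa histone deacetylase, had 6 and 6 against 4 and 3 and 4 and 4. Anxa2, encoding the membrane-binding protein annexin A2, had 5 and 5 against 4 and 4 in the immature B pair and 1 and 1 in the pc-BMAC pair. Gpatch2 had 13 and 11 against 9 and 8 and 6 and 6, and Prep, encoding prolyl endopeptidase, 14 and 16 against 12 and 10 and 12 and 9. Atg5, needed for autophagy, held 3 members of 25 regions and had 16 and 16 against 9 and 8 and 15 and 14. In these 8 genes each plasma cell library had more called regions than any other library, to which the members chosen for that pattern contribute by construction.

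At the remaining genes with 3 or 4 members, at least 1 library of another population had as many called regions as a plasma cell library, or more. Bach2, a repressor of plasma cell differentiation, held 3 members among 60 regions, with 27 and 24 called in the plasma cell pair, 44 and 32 in the immature B pair and 25 and 13 in the pc-BMAC pair. Ebf1, which specifies the B lineage, held 3 of 46, with 25 and 29 in the plasma cell pair, 33 and 32 in the immature B pair and 24 and 18 in the pc-BMAC pair. Prex1, an activator of Rac, held 3 of 48, with 29 and 23 called in the plasma cell pair, 32 and 26 in the immature B pair and 20 and 16 in the pc-BMAC pair. Ripor2, a RhoA inhibitor, held 4 of 34. Znrf3, a ubiquitin ligase that removes Wnt receptors, held 3 of 24 and had most regions in pc-BMACs, 18 and 16, against 11 and 11 in plasma cells. Rasa2, a Ras GTPase-activating protein, held 3 of 15, all within 4.09 kb of each other outside the gene, although immature B cells had more regions there (10 and 8) than plasma cells (6 and 7). Fhod3 held 4 of 11 (36.4%), with 6 and 9 called in the plasma cell pair, 3 and 6 in the immature B pair and 2 and 2 in the pc-BMAC pair. The others were Bfsp2, Dnm3, Runx3 and Vps13b, with 17 to 28 regions each.

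**Figure D4:**
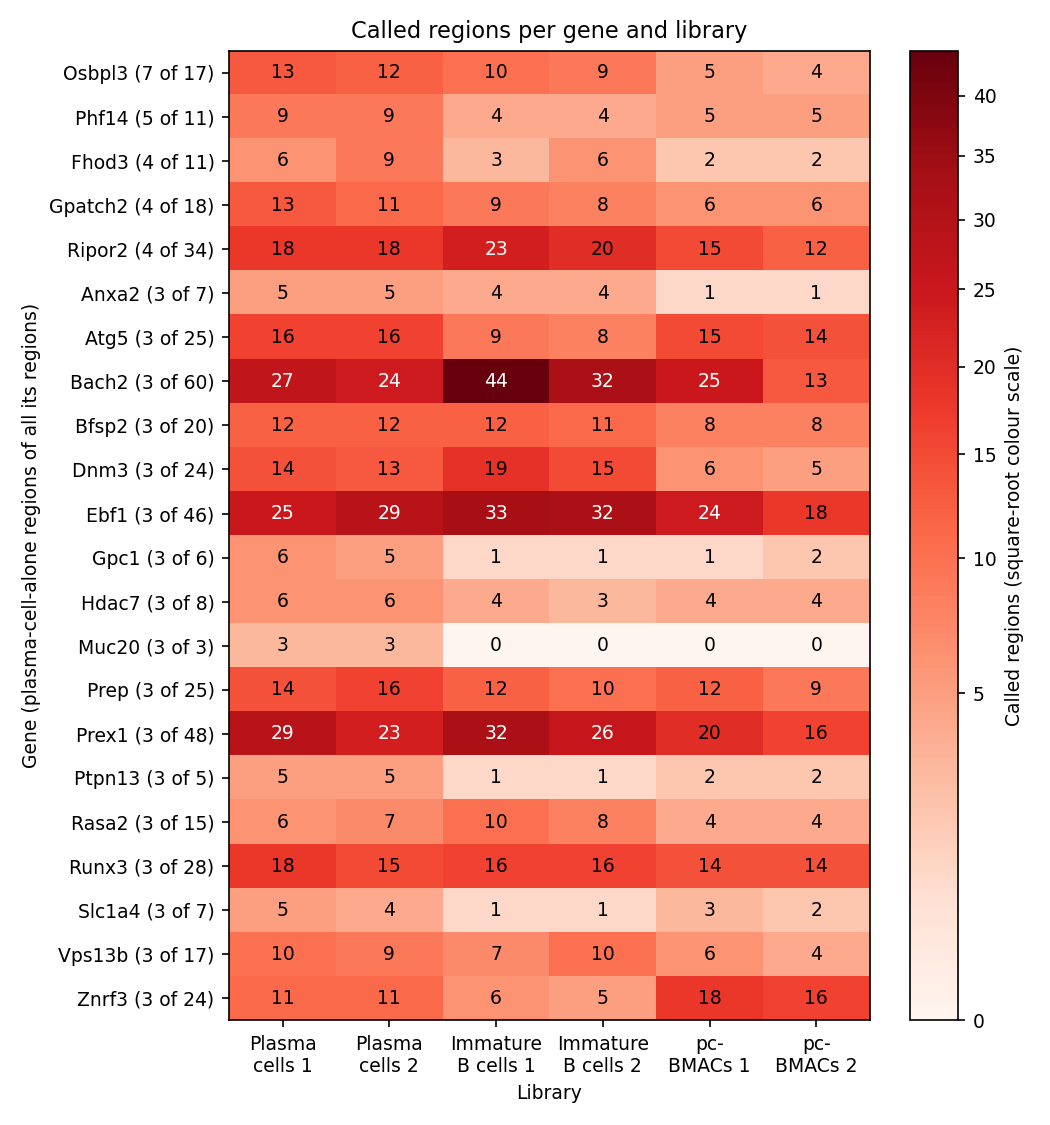
Heat map of the number of regions called in each library (columns) for the 22 genes with 3 or more members (rows), with members and all regions of the gene in brackets and a square-root colour scale. Muc20, Gpc1, Ptpn13 and Phf14 have more regions in both plasma cell libraries than in the other 4. Members, chosen for calls in both plasma cell libraries and in none of the other 4, contribute to these counts by construction. Bach2, Ebf1 and Prex1 have most regions in immature B cells 1.

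The widest members beyond these were single regions at other genes. At Rftn1, encoding the lipid raft protein raftlin, chr17:50158523-50160230 had peaks of 1708 and 943 bp, but it lay 152 bp from the nearest peak of another population. At Mcl1, encoding a BCL-2 family protein on which plasma cell survival depends, chr3:95668034-95669660 had peaks of 1453 and 1627 bp, 4855 bp from the gene and 2300 bp from the nearest peak of the other 4 libraries. The other 3 regions of Mcl1 were called in all 6 libraries. At Mgat3, a glycosyltransferase of N-glycans, chr15:80191874-80193210 had peaks of 1337 and 1291 bp.

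Of the 278 regions of a list of 26 plasma cell genes, 3 were members (1.08%, against 1.51% of all assigned regions), and 38 (13.7%, against 3.73%) were shared by plasma cells and pc-BMACs alone. The count of 3 was the lowest among the settings tried and rose to 8 (2.88%, against 1.65% of all) with 50% cover of a region required, to 7 (2.69%, against 1.93%) without pc-BMACs 1 and to 6 (2.21%, against 1.74%) without pc-BMACs 2. Without immature B cells 1 it was 6 (2.24%, against 2.03%), without plasma cells 1 also 6 (2.21%, against 2.66%) and without plasma cells 2 9 (3.27%, against 3.70%). With peaks of at least 300 bp it was 6 (2.94%, against 0.944%), and without immature B cells 1 and pc-BMACs 1 it was 11 (4.40%, against 2.70%), the highest count. The list's share thus lay above or below the background depending on the setting. The members were 2 regions at Slamf7, encoding a receptor of the SLAM family abundant on plasma cells, and 1 at Fndc3b. Of the Slamf7 regions, chr1:171643551-171644045 had peaks of 495 and 434 bp and chr1:171652796-171653233, across a gene end, had peaks of 401 and 370 bp. Slamf7 as a whole was called at 6 and 5 regions in the plasma cell pair, 5 and 5 in the immature B pair and 5 and 4 in the pc-BMAC pair. Its 2 members were found under every setting except the widest 17035 peaks of each list, which left 0. The Fndc3b region is chr3:27598184-27598539, with peaks of 272 and 354 bp, in a gene called at 13 and 12 regions in the plasma cell pair, 5 and 6 in the immature B pair and 25 and 18 in the pc-BMAC pair.

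Prdm1, Xbp1, Irf4, Sdc1 (which encodes CD138) and Tnfrsf13b (which encodes TACI) held no member. Prdm1 was called at 12 and 11 regions in the plasma cell pair, 14 and 16 in the immature B pair and 13 and 12 in the pc-BMAC pair. Xbp1 had 6 and 6, 5 and 4, and 6 and 6 in the same order, Irf4 3 and 3, 4 and 4, and 3 and 3, Sdc1 9 and 9, 11 and 8, and 6 and 7, and Tnfrsf13b 8 and 8, 8 and 7, and 8 and 7. All 5 genes were thus called in every library, those of immature B cells included.

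The secretory pathway and unfolded protein response list had 3 members of 191 regions (1.57%), near the background. They lie at Fut8, a fucosyltransferase of N-glycans, with 2 regions, both over 58 kb from the gene, and at Eif2ak3, the sensor kinase PERK, with chr6:70864397-70864593 inside the gene and peaks of 150 and 188 bp. A further 19 regions of that list (9.95%) were shared by plasma cells and pc-BMACs alone. Bone marrow homing and adhesion genes had 2 of 148 (1.35%), at Cxcr3, a chemokine receptor, and S1pr1, the receptor for sphingosine 1-phosphate. The Cxcr3 region, chrX:101737090-101737585, had peaks of 398 and 496 bp, and Cxcr3 had 4 and 3 regions in the plasma cell pair and 1 in each of the other 4 libraries. Survival genes had 2 of 151 (1.32%), at Mcl1 and at Bid, a pro-apoptotic BH3-only gene.

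The B cell identity list had 8 members of 342 regions (2.34%), with 3 each at Ebf1 and Bach2 and 1 each at Pax5 and Bcl11a. At Pax5, plasma cells were called at 10 and 8 regions, immature B cells at 15 and 14 and pc-BMACs at 7 and 5. The early B precursor list had 2 of 153 (1.31%), at Lef1 and Cd24a. Antigen presentation and costimulation genes had 4 of 111 (3.60%), 1 each at Cd80 and Cd86, encoding the ligands of CD28, and at Cd274 and Pdcd1lg2, encoding the ligands of PD-1. Cd80 was called at 6 and 6 regions in the plasma cell pair, 3 and 3 in the immature B pair and 4 and 3 in the pc-BMAC pair, and its member chr16:38466050-38466374 had peaks of 325 and 311 bp. Cd86 had 9 and 8, 11 and 9, and 8 and 8. No member lay at the genes of major histocompatibility complex class II in that list. The TGF-beta and cyclic AMP signalling list had 4 of 225 (1.78%), at Pmepa1, a feedback inhibitor of TGF-beta signalling, Tgfbr1, Tgfbr2 and Smad3. Pmepa1 was called at 10 and 10 regions in the plasma cell pair, 10 and 9 in the immature B pair and 3 and 2 in the pc-BMAC pair. The Aire regulation and NF-kB list had 1 of 78 (1.28%), at Tnfaip3, and the stem and progenitor list and the housekeeping list had 0 of 50 and 0 of 56.

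**Figure D5:**
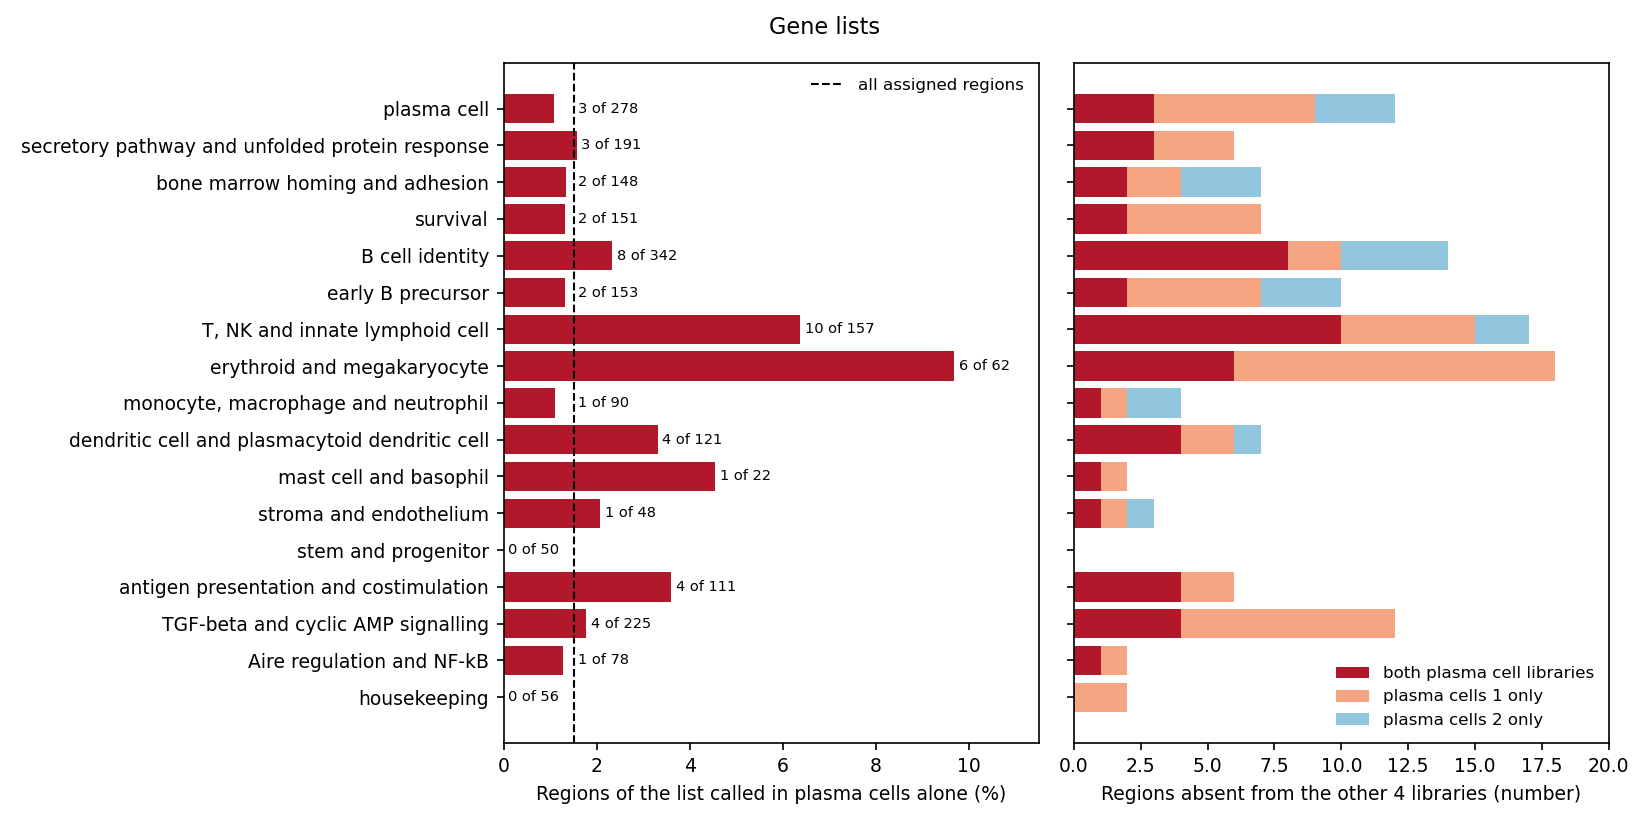
The left panel gives the percent of each list's regions that were called in plasma cells alone, with the counts, and a dashed line at 1.51% for all assigned regions. The right panel gives the number of regions absent from the other 4 libraries by whether both plasma cell libraries or only 1 had them. The list of T, NK and innate lymphoid cell genes (10 of 157) and the erythroid and megakaryocyte list (6 of 62) have the highest shares. The latter also has 12 regions of plasma cells 1 only and 0 of plasma cells 2 only, where all merged regions have 1467 and 759.

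The highest shares stood at lists of other cell types. The list of T, NK and innate lymphoid cell genes had 10 members of 157 regions (6.37%, against 1.51% of all assigned regions), at 6 genes. Runx3, a transcription factor of cytotoxic lymphocytes, held 3, of which chr4:135161154-135161809 inside the gene had peaks of 656 and 481 bp and the other 2 lie 47.6 and 50.4 kb away. Prf1, encoding the pore-forming protein perforin, held 2 of its 3 regions: chr10:61301072-61301350 inside the gene, with peaks of 195 and 229 bp, and chr10:61308179-61309167, 3495 bp outside it, with peaks of 949 and 721 bp. The third, at a gene end, was called in the plasma cell and immature B pairs, and Prf1 had 0 regions in both pc-BMAC libraries. Il2rb, a subunit of the receptors for interleukins 2 and 15, held 2 of 7 regions, and had 6 and 6 regions in the plasma cell pair, 2 and 1 in the immature B pair and 3 and 2 in the pc-BMAC pair. Tbx21, which encodes the transcription factor T-bet, held 1 of 5 (chr11:97112772-97113194, peaks of 423 and 316 bp), with 3 and 3 regions in the plasma cell pair, 3 and 2 in the immature B pair and 1 and 0 in the pc-BMAC pair. Cd3e held 1 of 5, chr9:45018744-45019151, 9081 bp from the gene, where the plasma cell peaks of 213 and 245 bp shared 0.122 of their joined base pairs. Gzma was called once, at the start whose sequence is shown above (chr13:113100902-113101221), with peaks of 320 and 227 bp in plasma cells 1 and 2 and none elsewhere.

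The called regions of that list, over all its regions, numbered 85 and 86 in the plasma cell pair, 107 and 93 in the immature B pair and 71 and 61 in the pc-BMAC pair, and the deposited lists differ in length (37821 and 36723, 51643 and 46534, and 38607 and 34070 peaks in the same order). At least 1 region was called at 21 and 22 of its 29 genes in the plasma cell pair, 22 and 20 in the immature B pair and 19 and 17 in the pc-BMAC pair. Cd8a, Cd8b1, Bcl11b, Gzmb, Ncr1, Nkg7 and Klrg1 had no region in either plasma cell library, and Cd3d and Cd3g had 1 region each in both. Over the settings tried, the list's share ranged from 5.77% to 10.6% and its count from 5 to 15. At each setting the share was above that of all assigned regions, which ranged from 0.944% to 3.70%. Unlike Il2rb, some genes of the list had fewer regions in the plasma cell pair than in the immature B pair. Ifng had 5 and 6 in the plasma cell pair against 15 and 14 in the immature B pair. Il18r1 had 0 and 1 against 4 and 4. The part of T, NK or innate lymphoid cells in the sort was not tested.

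The erythroid and megakaryocyte list had 6 members of 62 regions (9.68%, against 1.51%), at 5 genes. Ank1, encoding the red cell membrane protein ankyrin, held 2, chr8:23034950-23035279 with peaks of 330 and 227 bp and chr8:23054021-23054352 with peaks of 293 and 255 bp. Tal1, encoding a blood stem cell and erythroid transcription factor, held chr4:115056638-115056863 (150 and 150 bp), Nfe2, encoding an erythroid and megakaryocyte factor, chr15:103252748-103253015 (228 and 225 bp), and Gp9, a platelet glycoprotein gene, chr6:87775903-87776193 (291 and 150 bp). Beyond the lists, the member chr11:78065960-78066235 lies 6770 and 6935 bp from the hairpins of Mir144 and Mir451a, the erythroid miRNA pair. Other members lie nearer to hairpins of other miRNAs, such as Mir6367 (0 bp), Mir1929 (913 bp) and Mir338 (1743 bp). Nearness to a hairpin was thus not particular to the erythroid pair.

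As a list, the erythroid genes had more called regions in plasma cells 1 than in any other library. The list was called at 43 regions in plasma cells 1 and 32 in plasma cells 2, against 32 and 23 in the immature B pair and 28 and 26 in the pc-BMAC pair. The 6 members add to both plasma cell counts and to none of the other 4 by construction. At least 1 region was called at 17 of its 19 genes in plasma cells 1, at 13 in plasma cells 2 and immature B cells 1, at 10 in immature B cells 2 and at 11 in each pc-BMAC library. In addition to the 6 members, 12 regions were called in plasma cells 1 and no other library, and 0 in plasma cells 2 and no other. Of all 69171 merged regions, 1467 were called in plasma cells 1 only and 759 in plasma cells 2 only. Gata1, Hba-a1, Hbb-bt and Alas2 each had 1 region in plasma cells 1 and 0 in the other 5 libraries, while Hba-a2 had 0 in every library and Klf1 had 1 in every library. Other genes of the list did not follow that pattern. Slc4a1, encoding the red cell anion exchanger, had 5 and 4 in the plasma cell pair, 1 and 1 in the immature B pair and 5 and 6 in the pc-BMAC pair. Hbb-bs had 2 and 1 in the plasma cell pair and 1 in pc-BMACs 2, and Tal1 (2 and 3) and Gp9 (1 and 2) had more in plasma cells 2 than in plasma cells 1. Without plasma cells 2 the count of members rose to 18 (29.0%, against 3.70% of all), and without plasma cells 1 it was 6 (12.0%, against 2.66%). With peaks of at least 300 bp it was 1 (2.94%, against 0.944%). With the widest 17035 peaks of each list it was also 1 (7.14%, against 1.69%). The part of erythroid cells or their DNA in these members was not tested.

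The 4 lists of other mature lineages had 1 to 4 members each, beside the 1.51% of all assigned regions. The monocyte, macrophage and neutrophil list had 1 of 90 (1.11%), the S100a8 region (chr3:90668906-90669380), where plasma cells 1 had a peak of 150 bp and plasma cells 2 one of 475 bp. Lyz2, Ly6g, Elane and Ccr2 of that list had no region in either plasma cell library. The dendritic cell and plasmacytoid dendritic cell list had 4 of 121 (3.31%), with 2 at Runx2 and 1 each at Irf8 and Bst2. Runx2, a transcription factor that plasmacytoid dendritic cells also use, was called at 13 and 12 regions in the plasma cell pair, 10 and 9 in the immature B pair and 5 and 8 in the pc-BMAC pair. The mast cell and basophil list had 1 of 22 (4.55%), at Hdc, and the stroma and endothelium list 1 of 48 (2.08%), at Cdh5.

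One member crosses a start of Xist, the RNA that silences an X chromosome in female cells, at chrX:103483151-103483417, with peaks of 241 and 263 bp in plasma cells 1 and 2. Regions called in the Y chromosome stretch that holds Eif2s3y, Uty and Ddx3y numbered 8 in immature B cells 1 and 3 in pc-BMACs 1, and 0 in both plasma cell libraries, immature B cells 2 and pc-BMACs 2. Immature B cells 1 and pc-BMACs 1 are the libraries whose descriptions end in R2, while those of the other 4, both plasma cell libraries included, end in R3 or R4. The labels do not say what these endings stand for, and their part in the choice of regions was not tested beyond the set without those libraries. With the R3 and R4 libraries only, that is without immature B cells 1 and pc-BMACs 1, the rule gave 1659 regions, and the erythroid count there was 6 (10.7%, against 2.70% of all) and the T, NK and innate lymphoid count 14 (9.72%).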

How the data were processed

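ATAC-seq peak lists were used, 1 per library. Per the submitters' processing notes, the tools were bedtools, HOMER 4.10 and Bowtie2 2.3.3, and the build was mm10. For tool roles, calling settings and the inputs of each intersection, nothing is given in the sources used here. The deposited lists have 5 columns, whose score column holds 1000 in every row, so peaks could not be ranked by it, and the depth of each library is unknown. Lists held 34070 (pc-BMACs 2) to 51643 peaks (immature B cells 1), with 37821 and 36723 for the plasma cell libraries.

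Peaks were merged and assigned with Python 3.11.15, pandas 2.3.3 and numpy 2.4.6 to the nearest protein-coding interval of the RefSeq GRCm38.p6 table within 100 kb. Where gene intervals overlapped each other, the gene with the nearer end was taken. Promoter windows came from a RefSeq table that lacks some genes. Exact binomial intervals used scipy 1.17.1. Scripts were tested on simulated data.

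The members and the 17 gene lists were chosen with earlier results of these data known. Named genes are those with 3 or more members, up to 5 genes with a member per list, and Prdm1, Xbp1, Irf4, Sdc1, Tnfrsf13b, Pax5, Prf1, Gzma and Pmepa1. Regions at promoter windows and the 5 widest members are named too. One gene that this rule names is not reported here. With 2 libraries a group, no test was made.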

Additional observations from a re-analysis of the deposited data

How the results depend on the processing

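The files allow a comparison of peak presence alone, and the number of members depended on the width filter and on the libraries used. Against 1041, the rule gave 442 regions with the widest 17035 peaks of each list, 436 with peaks of at least 300 bp, 1127 to 2520 when each library was left out in turn (1829 without plasma cells 1 and 2520 without plasma cells 2), and 1659 without immature B cells 1 and pc-BMACs 1 (the R3 and R4 libraries only), a setting chosen after seeing the data. The list counts under each setting were added after seeing the data as well. The share within 1 kb of a gene end, 6.82%, became 12.0% with the widest 17035 peaks, 8.72% with peaks of at least 300 bp, 8.68% without immature B cells 1 and pc-BMACs 1, 4.32% for a distance of 500 bp and 21.9% for 5 kb. The share overlapping a gene, 63.8%, became 58.8% with the widest 17035 peaks and 72.0% over genes of all kinds. The median width, 303 bp, became 318 bp with 50% cover of a region required, 322 bp with the widest 34070 peaks, 607 bp with the widest 17035, 468 bp with peaks of at least 300 bp, and 200 to 311 bp when each library was left out. Leaving out a library drops a condition of the rule, so the number of regions could only rise there. All 1041 members were overlapped again at each such setting. For the other changes the cause was not tested, beyond the widths that the width settings themselves set. Merging peaks within 100 bp gave 1036 regions. Of 59 named genes with a member, 59 stayed within 1.5 times their count when peaks were merged within 100 bp, 54 with 50% cover required, 17 with peaks of at least 300 bp and 10 with the widest 17035 peaks. No paired analysis was possible because the results come from no test.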
